A study of Homo sapiens with 4 samples.

Results

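The lysosome genes measured here comprise hydrolases of the lumen, proteins of the limiting membrane, subunits of the V-ATPase proton pump and the TFEB family of transcription factors. The 45 genes were listed by symbol, with earlier results of these data known, and 41 of them had a named transcript probe set on the array, of 17687 named genes in all. The other 4, GLB1, NEU1, NPC2 and ATP6V0A1, are not analysed here. Each of the 41 genes had 1 probe set. K562, a human chronic myeloid leukemia cell line that hemin can drive toward the erythroid lineage, was collected without hemin (0 h) or after 24 h in 50 µM hemin, an oxidized form of heme. Total RNA was hybridized to 4 Human Clariom S arrays, 2 per time point, labelled as biological replicates. Both time points were the same line in the same serum-containing RPMI medium. The methods also name a DMSO vehicle for hemin-treated cultures, and no 24 h culture without hemin was measured, so hemin, vehicle and time in culture cannot be told apart. The array reads RNA of all cells together, and fewer cells of a kind and less RNA per cell cannot be told apart either.

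Lysosomes break down proteins, sugar chains and lipids with acid hydrolases. The V-ATPase acidifies the lumen by coupling ATP hydrolysis in its cytosolic V1 sector to proton transfer through its membrane V0 sector. TFEB, TFE3 and MITF are related transcription factors that enter the nucleus when the kinase mTORC1 is inactive and bind an E-box, often within the palindrome known as the CLEAR element, in the promoters of many lysosomal genes. Erythroid cells clear their organelles late in maturation, a process in which autophagy delivers mitochondria to lysosomes.

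The values are the log2 values that the authors deposited after RMA, which corrects the background and normalizes the arrays by quantiles. limma compared the time points over all 20893 transcript probe sets, with calls made at a Benjamini-Hochberg adjusted p under 0.05. The array medians lay between 6.10 and 6.24, and arrays of 1 time point correlated at 0.982 and 0.988 across probe sets against 0.972 to 0.979 between time points, where probe sets are not independent replicates. Over all probe sets the median log2 fold change was -0.06, 172 probe sets rose and 25 fell. The ANOVA of the methods, at its threshold of an unadjusted p of 0.05, put 859 of the 20893 higher and 1071 lower. To judge dim signals, a dim line was drawn at 5.70 on the log2 scale, below which 95% of 349 olfactory receptor genes had their mean, and a negative control floor was set likewise at 7.56 from 612 control probe sets. The erythroid transcription factors GATA1, TAL1 and KLF1, which mark K562, were above the negative control floor in all 4 arrays. Their log2 fold changes were -1.04, 0.82 and -0.45. Of 6 measured erythroid and K562 markers limma called 0. By unadjusted p, 1 was higher, HBE1 at 0.91, and 1 was lower, GATA1. The ANOVA of the methods, and limma with a variance model that follows brightness, also put HBE1 higher and GATA1 lower. Of 13 monocyte and macrophage markers, 5 were above the dim line in all 4 arrays and 4 were below it in all 4. By the higher negative control floor, 11 of the 13 had at least 1 array below it, and LYZ and AIF1 were above it in all 4. LYZ was bright (mean 11.94 at 0 h, 11.74 at 24 h) and CD14 was dim (5.90 and 5.57). AIF1 was the 1 marker called, with means of 13.81 and 11.96, a fall by 1.85 on the log2 scale (adjusted p = 0.046 from limma). The AIF1 call was lost without either array of 0 h and without replicate 2 of 24 h, at adjusted p of 0.16, 0.17 and 0.11. Of 6 measured lymphocyte markers 0 were called by limma, where 1 was lower by unadjusted p and 0 by the ANOVA of the methods. The part of such cells in the values below was not tested.

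After 24 h of hemin, 3 of the 41 lysosomal genes rose and 0 fell. They were CTSD, a lysosomal aspartic protease, GLA, the galactosidase deficient in Fabry disease, and NPC1, the membrane protein that exports cholesterol from the lysosome. Of all probe sets 0.943% were called, 0.823% higher and 0.12% lower. By an unadjusted p under 0.05, 10 of the 41 genes were higher and 0 were lower, against 6.28% and 6.62% of all probe sets. Both arrays of 24 h lay above both of 0 h in 15 genes and below them in 4, against 18.8% and 24.9% of all probe sets. The fitted change was above 0 in 29 of the 41, against 44.9% of all probe sets. A nearer background is the 10379 probe sets above the dim line in all 4 arrays. Of these, 959 were higher and 923 lower by unadjusted p. Without overlap, 2449 were higher and 2927 lower, and 4892 had a fitted change above 0. The median log2 fold change of the 41 genes was 0.29, with a range of -0.59 to 3.22, against -0.04 for the probe sets above the dim line in all 4 arrays. All 4 arrays lay above the dim line in 37 of the 41 genes, and 3 genes, LIPA, ARSA and TFEB, were below it in all 4.

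**Figure D1:**
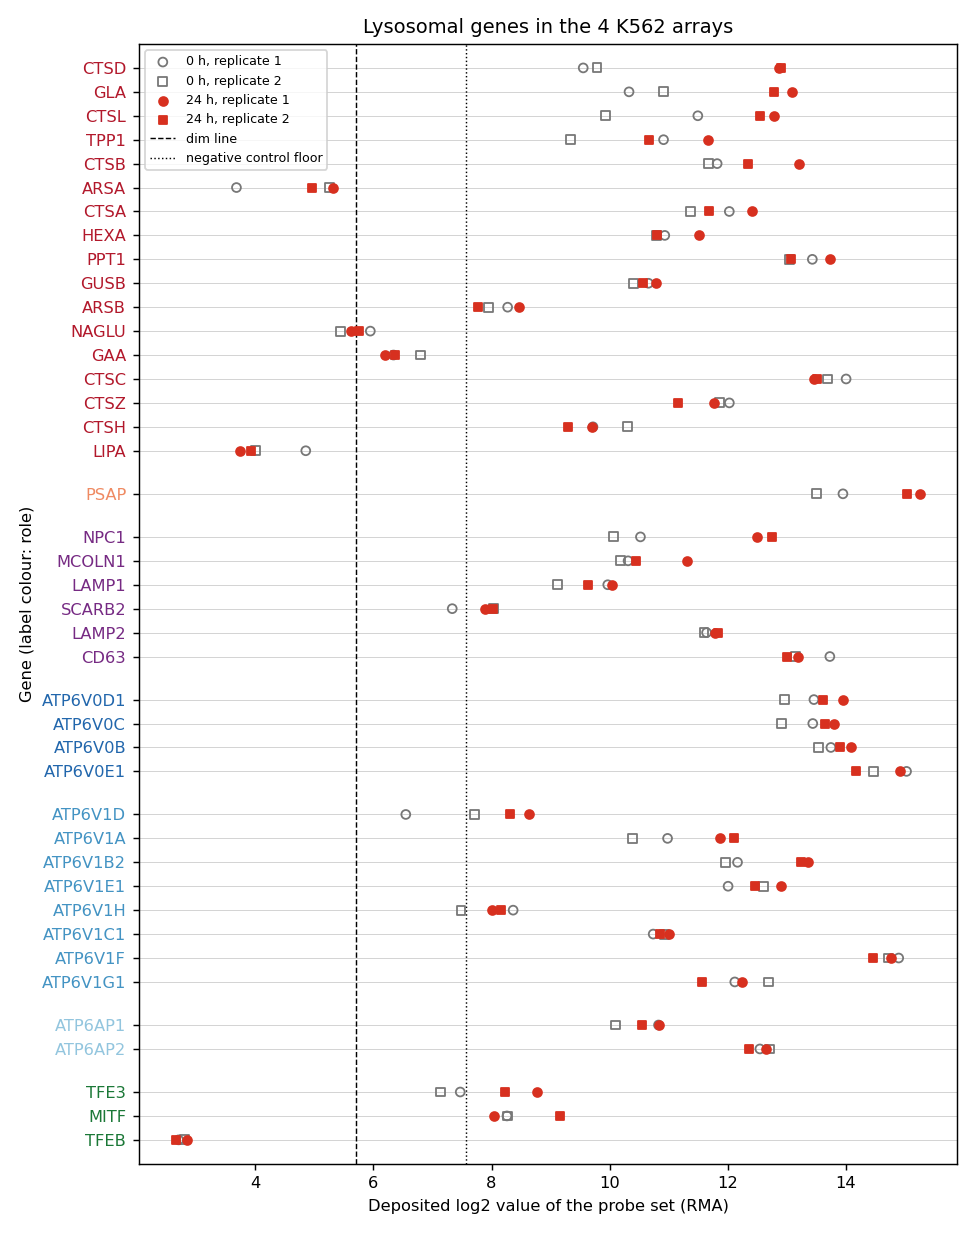
Deposited log2 values of the 41 lysosomal genes (y axis, label colour by role) in each of the 4 arrays (x axis), with open grey symbols for 0 h and filled red symbols for 24 h of hemin, and vertical lines at the dim line of 5.70 and the negative control floor of 7.56. Both red symbols lie well to the right of both grey ones for CTSD, GLA and NPC1, while the symbols overlap for 22 genes.

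Among the hydrolases the 8 proteases covered the widest range. CTSD was measured at log2 values of 9.55 and 9.78 at 0 h and of 12.87 and 12.91 at 24 h. The pairs did not overlap, and the smallest difference between any 24 h and any 0 h array was 3.09 on the log2 scale. Its log2 fold change was 3.22 (standard error 0.31, adjusted p = 0.0015 from limma), or 9.32-fold, and its adjusted p was at most 0.048 with each array left out in turn. Such a fit leaves 1 array at a time point, which is assumed to vary like the 2 arrays of the other, so here and below it gives values rather than a check of replication.
CTSL, a cysteine protease, lay at 11.49 and 9.92 at 0 h and at 12.78 and 12.54 at 24 h. Both 24 h arrays were above both 0 h arrays, which themselves stood far apart (SD of the 2 arrays 1.11). The log2 fold change was 1.95 (standard error 0.48, adjusted p = 0.11 from limma), and it was 2.74 without replicate 1 and 1.17 without replicate 2 of 0 h.
CTSB, another cysteine protease, lay at 11.82 and 11.68 at 0 h and at 13.21 and 12.35 at 24 h. The groups did not overlap, and replicate 1 of 24 h stood highest. The log2 fold change was 1.03 (95% confidence interval 0.21 to 1.85, adjusted p = 0.27), falling to 0.60 without replicate 1 of 24 h.
TPP1, a tripeptidyl peptidase, had a log2 fold change of 1.04, but its replicates differed so far that the groups overlapped (95% confidence interval -0.14 to 2.23). CTSA, the protective protein of galactosidase and neuraminidase, was at 0.35 with an interval from -0.51 to 1.20. The other 3 proteases had fitted changes below 0, namely CTSC, an activator of granule serine proteases, at -0.37, the carboxypeptidase CTSZ at -0.48 and the aminopeptidase CTSH at -0.51. In each of these 3 both 24 h arrays lay below both 0 h arrays, and none was called (unadjusted p of 0.27, 0.19 and 0.17 from limma).

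Of the 5 measured glycosidases, 1 rose. GLA, which removes terminal galactose from globotriaosylceramide, lay at log2 values of 10.33 and 10.90 at 0 h and of 13.09 and 12.78 at 24 h. The groups stood at least 1.88 apart on the log2 scale. The log2 fold change was 2.32 (standard error 0.34, adjusted p = 0.014 from limma), or 5.00-fold, and the call was lost without replicate 1 or replicate 2 of 0 h (adjusted p of 0.12 and 0.062).
HEXA, the alpha subunit of hexosaminidase, and GUSB, the glucuronidase often used as a reference gene, had log2 fold changes of 0.30 and 0.14. For GUSB the 95% confidence interval ran from -0.57 to 0.85, so a change of the size seen in GLA lay outside it. NAGLU and GAA, which degrade heparan sulfate and glycogen, were at 0.00 and -0.29 and below the negative control floor in all 4 arrays. The sulfatase ARSB was at 0.01 (95% confidence interval -0.79 to 0.80), and the thioesterase PPT1 at 0.16. ARSA, the arylsulfatase of sulfatide breakdown, and LIPA, the acid lipase, were not above the dim line in any array.

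PSAP, which encodes the precursor of the saposins, the small activators that present sphingolipids to hydrolases, lay at 13.95 and 13.50 at 0 h and at 15.26 and 15.03 at 24 h. The groups did not overlap and stood at least 1.08 apart on the log2 scale. Its log2 fold change was 1.42 (standard error 0.33, adjusted p = 0.089 from limma). With a variance model that follows brightness (trend and robust settings) its adjusted p was 0.0058. That setting called 546 of all probe sets, against 197 in the main fit. With each array left out in turn the log2 fold change of PSAP ran from 1.19 to 1.64.

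Of 6 proteins of the lysosomal membrane, 1 rose. NPC1 lay at 10.52 and 10.06 at 0 h and at 12.50 and 12.75 at 24 h. The groups stood at least 1.98 apart on the log2 scale. The log2 fold change was 2.33 (standard error 0.33, adjusted p = 0.011 from limma), or 5.02-fold, and the call was lost without replicate 1 or replicate 2 of 0 h (adjusted p of 0.068 and 0.11).
LAMP1 and LAMP2, the heavily glycosylated proteins that make up much of the lysosomal membrane, were not called by limma, while the ANOVA of the methods put LAMP2 higher at its threshold. LAMP1 lay at 9.97 and 9.12 at 0 h and at 10.04 and 9.63 at 24 h, with overlapping groups and a log2 fold change of 0.29 (95% confidence interval -0.55 to 1.14). LAMP2 lay at 11.64 and 11.60 at 0 h and at 11.78 and 11.83 at 24 h. The LAMP2 groups did not overlap, and the log2 fold change was 0.19 (95% confidence interval -0.50 to 0.88, adjusted p = 0.85 from limma). For both, the interval ended well under the change of NPC1.
MCOLN1, the calcium channel TRPML1, was at a log2 fold change of 0.63 without overlap, with replicate 1 of 24 h at 11.30 and the other 3 arrays between 10.19 and 10.45. SCARB2, the receptor that carries glucocerebrosidase to the lysosome, was at 0.27, and the tetraspanin CD63 at -0.34.

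None of the 14 measured V-ATPase genes was called by limma, while 3 were higher and 0 lower by unadjusted p, and the ANOVA of the methods put 1 higher and 0 lower at its threshold. The 3 genes all encode V1 subunits. ATP6V1A, the catalytic A subunit, lay at 10.98 and 10.38 at 0 h and at 11.86 and 12.11 at 24 h, without overlap. Its log2 fold change was 1.31 (standard error 0.34, adjusted p = 0.13 from limma).
ATP6V1B2, the B subunit that completes the catalytic hexamer, lay at 12.16 and 11.96 at 0 h and at 13.36 and 13.24 at 24 h. These replicates were close, and the log2 fold change was 1.24 (standard error 0.31, adjusted p = 0.12). ATP6V1D, part of the central rotor, lay at 6.55 and 7.71 at 0 h and at 8.63 and 8.32 at 24 h, or 1.34 higher at 24 h (standard error 0.41, adjusted p = 0.19) with 1 array of 0 h below the negative control floor. With the trend and robust variance model ATP6V1A and ATP6V1B2 were called, at adjusted p of 0.039 and 0.020.
The other 5 V1 subunits had log2 fold changes of 0.37 for ATP6V1E1, 0.16 for ATP6V1H, 0.09 for ATP6V1C1, -0.20 for ATP6V1F and -0.50 for ATP6V1G1, with overlapping groups in all 5. ATP6V1C1, which links the head to the membrane sector, had a 95% confidence interval from -0.61 to 0.79. The intervals of ATP6V1A (0.54 to 2.07) and ATP6V1B2 (0.54 to 1.94) overlapped it, and no test compared the subunits.
In the V0 sector, ATP6V0C, which forms the proton-carrying ring, lay at 13.44 and 12.91 at 0 h and at 13.80 and 13.64 at 24 h. The groups did not overlap, and the log2 fold change was 0.55 (95% confidence interval -0.20 to 1.29, adjusted p = 0.54). ATP6V0D1 and ATP6V0B, also without overlap, were at 0.57 and 0.35, and ATP6V0E1 was at -0.20. The accessory proteins ATP6AP1 and ATP6AP2, the latter known as the prorenin receptor, were at 0.23 and -0.12.

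**Figure D2:**
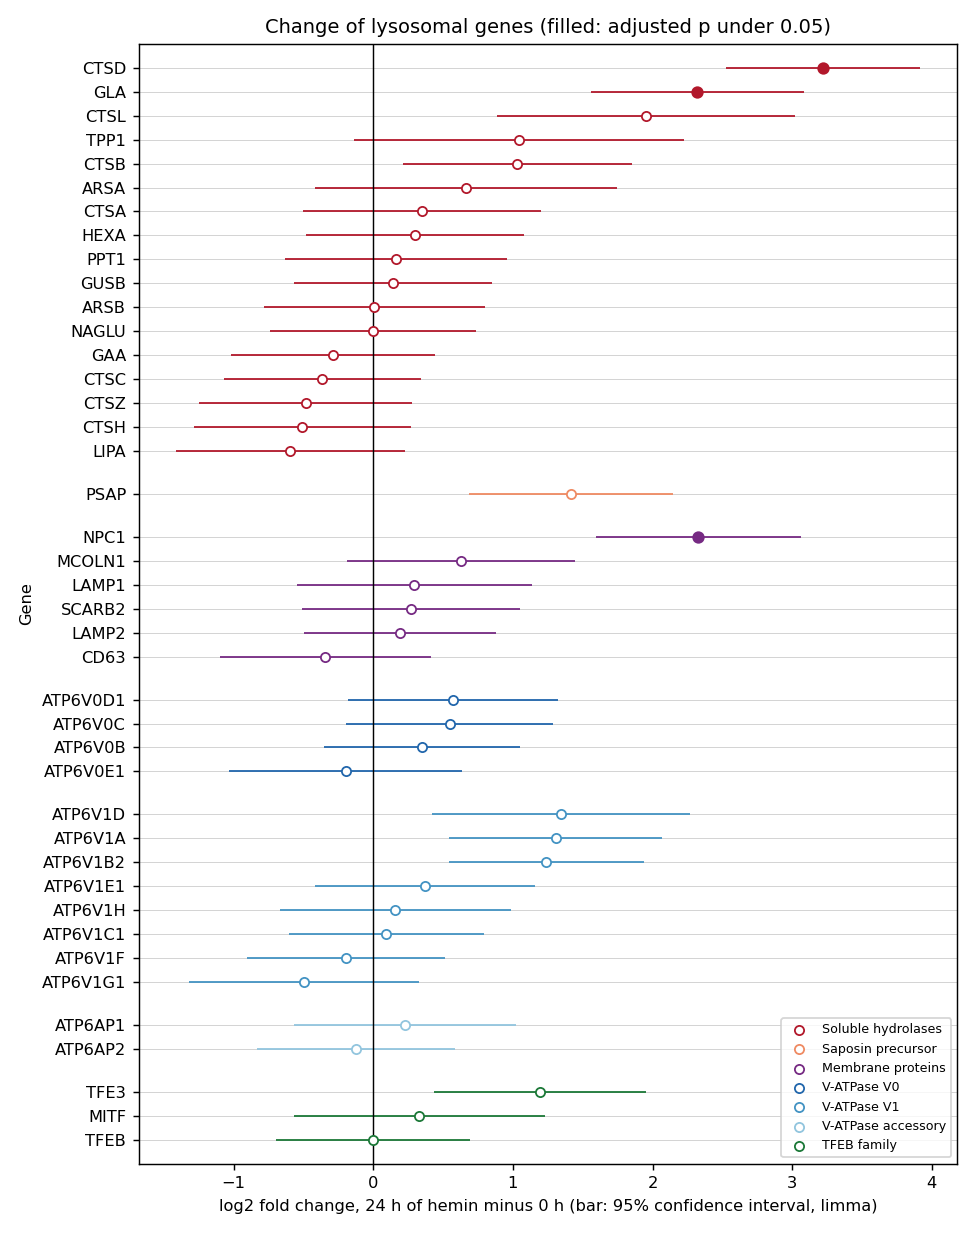
log2 fold change of the 41 genes at 24 h of hemin minus 0 h (x axis) with its 95% confidence interval from limma, coloured by role, where filled points have an adjusted p under 0.05. The 3 filled points are CTSD at 3.22, NPC1 at 2.33 and GLA at 2.32, and 7 further intervals lie wholly above 0.

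None of the 3 genes of the TFEB family was called by limma, with 1 higher and 0 lower by unadjusted p, and 0 by the ANOVA of the methods. TFE3 lay at 7.47 and 7.14 at 0 h and at 8.76 and 8.24 at 24 h. The groups did not overlap, and both 0 h values were below the negative control floor. Its log2 fold change was 1.19 (standard error 0.34, adjusted p = 0.16 from limma).
MITF, the family member known from melanocytes and osteoclasts, lay at 8.26 and 8.27 at 0 h and at 8.04 and 9.16 at 24 h, on both sides of the 0 h arrays. Its log2 fold change was 0.33 (95% confidence interval -0.57 to 1.23). TFEB lay at 2.70 and 2.81 at 0 h and at 2.84 and 2.66 at 24 h, below the dim line in all 4 arrays, so a change in it could not be read on these probes. These values are of RNA, whereas the factors are controlled largely by phosphorylation and location, which arrays do not read.

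By role, the median log2 fold change was 0.16 for 17 hydrolases, 0.28 for 6 membrane proteins, 0.29 for 14 V-ATPase genes and 0.33 for 3 TFEB family genes, against -0.06 over all probe sets. That the called genes CTSD, GLA and NPC1 lay above the medians of their roles follows from how they were called. The 8 proteases had a median of 0.69 and the 5 glycosidases of 0.14. The middle 50% of all probe sets ran from -0.37 to 0.26, and 15 of the 41 genes lay in it. The fitted changes of 11 genes were above the 95th percentile of 0.90, and 0 were below the 5th percentile of -0.86.

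**Figure D3:**
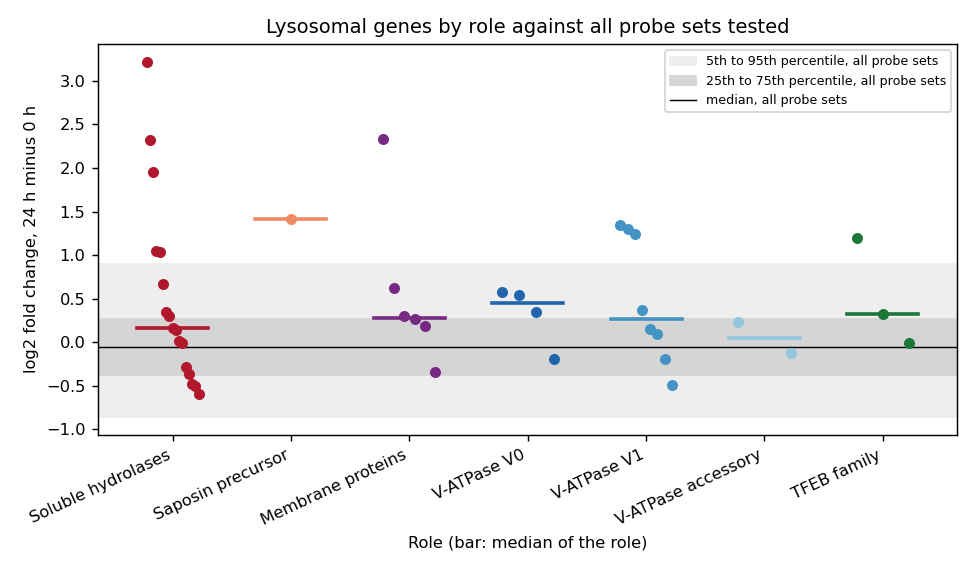
log2 fold change at 24 h minus 0 h (y axis) of each lysosomal gene by role (x axis), where short bars are medians of the roles and grey bands are percentiles of all 20893 probe sets. The 11 genes above the 95th percentile of 0.90 include CTSD, PSAP, NPC1, CTSB and TFE3, and also CTSL and TPP1, whose 0 h arrays stood far apart.

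The calls changed when an array was left out. The log2 fold change of GLA then stayed between 2.03 and 2.61, and that of NPC1 between 2.10 and 2.56. Without replicate 1 or replicate 2 of 0 h, 1 of the 41 genes was called, CTSD in both cases. Without replicate 1 of 24 h the calls were CTSD, GLA and NPC1, and without replicate 2 of 24 h CTSL was also under the threshold (adjusted p = 0.017), in a fit where the gene's own spread came from the 0 h arrays alone. No array turned the direction of any of the 10 genes at an unadjusted p under 0.05. With trend and robust settings the calls were 7, namely CTSD, GLA, NPC1, CTSL, PSAP, ATP6V1A and ATP6V1B2.

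**Figure D4:**
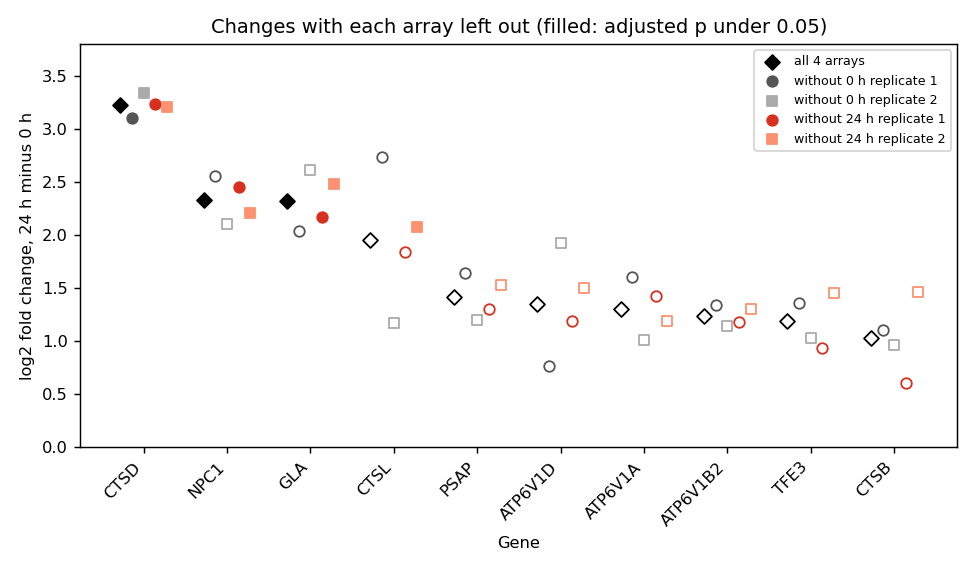
log2 fold change (y axis) of the 10 genes at an unadjusted p under 0.05 with all 4 arrays and with each array left out in turn, where filled symbols have an adjusted p under 0.05. CTSD is filled throughout and stays between 3.10 and 3.34, whereas CTSL runs from 1.17 to 2.74 and ATP6V1D from 0.76 to 1.93 by the 0 h array that was left out.

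The promoters of the 3 called genes are shown because they are the sequences next to the changes. Each is the RefSeq window of 300 bases in GRCh38.p14, from 250 bases before the gene's start to 50 after it, written 5′ to 3′ along the gene. Capitals mark every E-box, CACGTG, with an adjoining A or T that completes TCACGTG on either strand, and every match to TGACNNNGC on either strand, the core of the antioxidant response element bound by NRF2. The windows are chr11:1763878-1764177 for CTSD, chrX:101407876-101408175 for GLA and chr18:23586457-23586756 for NPC1, all on the minus strand.
CTSD: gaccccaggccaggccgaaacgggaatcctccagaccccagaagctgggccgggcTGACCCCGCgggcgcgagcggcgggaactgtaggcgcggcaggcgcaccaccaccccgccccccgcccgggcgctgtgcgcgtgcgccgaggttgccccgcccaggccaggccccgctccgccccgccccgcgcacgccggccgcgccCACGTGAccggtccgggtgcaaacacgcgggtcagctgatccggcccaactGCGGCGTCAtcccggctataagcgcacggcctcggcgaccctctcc
GLA: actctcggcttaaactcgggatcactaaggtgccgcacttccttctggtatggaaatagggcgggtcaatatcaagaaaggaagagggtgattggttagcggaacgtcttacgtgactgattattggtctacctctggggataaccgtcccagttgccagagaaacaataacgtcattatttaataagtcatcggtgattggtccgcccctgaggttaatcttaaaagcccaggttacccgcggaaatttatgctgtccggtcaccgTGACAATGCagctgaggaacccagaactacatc
NPC1: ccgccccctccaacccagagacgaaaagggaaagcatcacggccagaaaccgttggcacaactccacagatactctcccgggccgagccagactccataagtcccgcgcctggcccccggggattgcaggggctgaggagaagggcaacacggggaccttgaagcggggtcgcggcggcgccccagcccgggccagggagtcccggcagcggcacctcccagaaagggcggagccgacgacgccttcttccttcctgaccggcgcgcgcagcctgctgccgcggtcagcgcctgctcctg
CTSD held 1 E-box, 47 bases before the start, and 2 matches to the response element core, 195 bases before and 4 after the start. GLA held no E-box and 1 match to that core, 17 bases after its start. NPC1 held neither. In RefSeq the CTSD locus overlaps the noncoding gene PRADX, GLA overlaps the readthrough gene RPL36A-HNRNPH2, and NPC1 overlaps RMC1. No source used here says whether the probes tell these transcripts apart.

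The full CLEAR element was found in other members, none of them called. Only 3 of the 41 measured genes were called, so few calls were to be expected in any small group of them. Of the 45 genes 34 had a promoter window in the table, 8 of them several windows, and 30 of these 34 were measured. Measured genes without a window, whose promoters were not scanned, included CTSB, PSAP, ATP6V1A and ATP6V1B2, all higher at an unadjusted p under 0.05. HEXA, ARSA, NAGLU, LAMP2, ATP6V0E1, ATP6V1C1 and ATP6V1H, not at that threshold, also had no window. CACGTG was present in 10 of these 30 genes, or 33.3%, against 10.8% of the genes named on the array. TCACGTG was present in 9, or 30%, against 5.82%, TCACGTGA in 6, or 20%, against 1.67%, and the 10-letter CLEAR palindrome, TCACGTGA between a G and a C, in 3, or 10%, against 0.639%. Counted by window, the shares over all 35116 promoter windows were 7.26%, 3.71%, 0.98% and 0.353%. In the 51 windows of the 34 listed genes they were 21.6%, 19.6%, 11.8% and 5.88%. Counted by gene, the shares in 88 genes of 5 other lysosomal lists were 25%, 22.7%, 10.2% and 5.68%, and no test compared them with the members. These motifs are nested, so each longer match is also counted in the shorter ones. The element is known from promoters of many lysosomal genes, so the shares describe the listed genes and not their change with hemin. The sites of the 6 genes with TCACGTGA are shown as 30 bases each, chosen for this match, with TCACGTGA, or the whole 10-letter palindrome where present, in capitals.
GAA: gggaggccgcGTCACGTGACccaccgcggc
MCOLN1: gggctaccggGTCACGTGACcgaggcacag
ATP6V1G1: acgctgtgcgGTCACGTGACaacgggggcg
CTSA: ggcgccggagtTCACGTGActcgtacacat
LAMP1: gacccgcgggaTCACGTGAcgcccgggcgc
ATP6V0D1: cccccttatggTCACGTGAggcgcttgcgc
Their places are chr17:80101493-80101522 for GAA, chr19:7522598-7522627 for MCOLN1, chr9:114587699-114587728 for ATP6V1G1, chr20:45891298-45891327 for CTSA, chr13:113297199-113297228 for LAMP1 and, on the minus strand, chr16:67481199-67481228 for ATP6V0D1. The E-box shown began 76, 14, 58, 25, 28 and 59 bases before the start, in that order. LAMP1 held 6 E-boxes in its window, more than any other member with a window, at a log2 fold change of 0.29. The 6 genes ranged from -0.50 for ATP6V1G1 to 0.63 for MCOLN1, and GAA was below the negative control floor in all 4 arrays.
The 10 measured genes with CACGTG had a median log2 fold change of 0.32 and 1 call, and the 20 without it a median of 0.25 and 2 calls. Whether the motif goes with the change was not tested. TGACNNNGC was present in 15 of the 30 genes, or 50%, against 18.3% of the genes named on the array and 25% of the 88 other lysosomal genes. Counted by window, it was present in 33.3% of the 51 windows of the 34 listed genes, against 13.3% of all 35116 windows. A match describes letters in this window only, and whether a factor bound there was not measured.

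**Figure D5:**
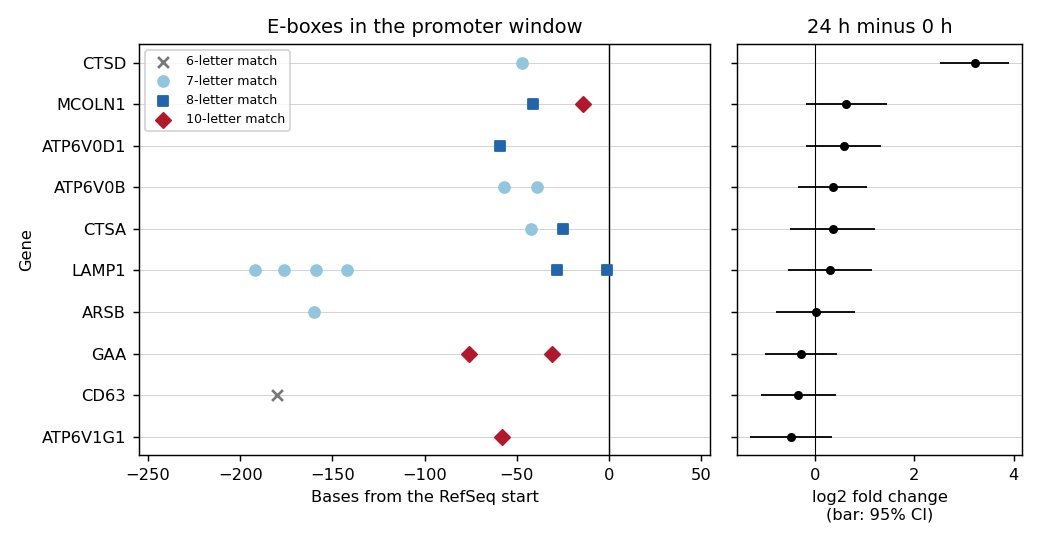
Left, position of each E-box (first base of CACGTG, in bases from the RefSeq start) in the promoter windows of the 10 measured lysosomal genes that hold one, with symbols by the length of the match to the palindrome of 10 letters. Right, log2 fold change of the same genes at 24 h minus 0 h with its 95% confidence interval, where only CTSD, at 3.22, has an interval clear of 0.

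The other genes of the lysosome, 119 in 5 lists, gave 104 with a named probe set, of which 1 rose and 0 fell, with a median log2 fold change of -0.01 against -0.06 over all probe sets. By unadjusted p, 13 of the 104 were higher and 9 lower, against 6.28% and 6.62% of all probe sets. The ANOVA of the methods put 8 of the 104 higher and 8 lower, against 859 and 1071 of all 20893 probe sets. With trend and robust variance limma called 4 of the 104 higher, IDS, CD68, PPP3R1 and IGF2R, and 3 lower, RNASET2, CTSS and LAPTM5. The 1 riser was among 28 further hydrolases: IDS, the iduronate sulfatase of Hunter syndrome, lay at 8.50 and 8.20 at 0 h and at 10.26 and 10.35 at 24 h. Its log2 fold change was 1.95 (standard error 0.31, adjusted p = 0.023 from limma), and the call was lost without replicate 1 or replicate 2 of 0 h (adjusted p of 0.10 and 0.14). By unadjusted p, 5 of these hydrolases were higher and 5 lower, the lowest being CTSS, a cathepsin of antigen-presenting cells, at a log2 fold change of -1.39 (adjusted p = 0.10).
Of 29 further membrane proteins limma called 0, with 4 higher and 2 lower by unadjusted p and 2 and 2 by the ANOVA of the methods. TMEM192 had the smallest p, at a log2 fold change of -1.19 (adjusted p = 0.14). Of 14 further V-ATPase subunits and assembly factors limma called 0, with 2 higher and 1 lower by unadjusted p and 2 and 1 by that ANOVA, and ATP6V1B1, an isoform of kidney and inner ear, had the smallest p at -1.02, with 1 of its 4 arrays above the dim line.
Of 20 genes that control the TFEB family limma called 0, with 1 higher and 1 lower by unadjusted p and 1 and 3 by that ANOVA. PPP3R1, the regulatory subunit of calcineurin, the phosphatase that activates TFEB, had the smallest p, at a log2 fold change of 1.12 (adjusted p = 0.16). Of 13 genes that sort hydrolases to the lysosome limma called 0. That ANOVA put 1 higher, VPS26A at a log2 fold change of 0.44, and 0 lower. By unadjusted p from limma 1 other gene was higher and 0 were lower. It was IGF2R, the large mannose 6-phosphate receptor, at 10.74 and 9.52 at 0 h and at 12.07 and 11.56 at 24 h. IGF2R was 1.69 higher at 24 h (standard error 0.43, adjusted p = 0.13 from limma).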

How the data were processed

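K562 RNA was read on 4 Clariom S arrays, grouped by the labels. Values deposited by the authors were log2 probe set levels from RMA (Affymetrix Expression Console, with Partek also in the submitters' processing notes), and no source used here gives versions or a genome build. Of 24351 rows, 2903 controls and 555 unmapped transcripts were left out, and 17705 of 20893 transcript probe sets had 1 symbol in GEO's platform annotation, 0 had several and 3188 are unnamed here. Tests ran in R 4.3.3 with limma 3.58.1 (lmFit, eBayes, no covariate, two-sided), checked on simulated data. No source says how the cultures of replicates were separated, so p-values cover only how far these arrays differ among themselves, and their number limits the precision. Members and lists were chosen with earlier results of these data known. Values in every array were given for members with an unadjusted p under 0.05, the TFEB family, ATP6V0C, ATP6V1A, LAMP1 and LAMP2, and of the other lists the called gene, or else that of smallest p, was named. CTSS, RNASET2, CD68, LAPTM5, the markers with values, the 6 E-box sites and the grouping of hydrolases were chosen after values were seen. Promoters were matched to RefSeq (GRCh38.p14) by symbol. Alternatives changed normalization, filters, variance model, array weights, replicate block, threshold, test or arrays 1 at a time, and the filter at the negative control floor was added after seeing the data.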

Additional observations from a re-analysis of the deposited data

How the results depend on the processing

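The 3 called genes were the same under another quantile normalization, median centring, a filter at the dim line, array weights and 1 probe set per gene. The count of members called, all higher, was 7 with trend and robust variance and with the filter at the negative control floor (both CTSD, GLA, NPC1, CTSL, PSAP, ATP6V1A and ATP6V1B2). It was 10 at an unadjusted p under 0.05. By the methods' ANOVA at its threshold it was 6, where 859 of all 20893 probe sets were higher and 1071 lower. After Benjamini-Hochberg adjustment that ANOVA called 0 members and 0 of all probe sets. With each array left out in turn the count ran from 1 to 4 and was 0 for members called lower, in fits where the lone array of a time point is assumed to vary like the other group. With the replicate number as a block it was 4, CTSL joining at an adjusted p of 0.018, and calls over all probe sets rose from 197 to 429. Same-numbered arrays did not deviate together over all probe sets (r = -0.0032). This value cannot tell whether they shared a culture or batch that moved only some genes. The count over all probe sets was 27 without replicate 1 and 53 without replicate 2 of 0 h, 392 without replicate 2 of 24 h, and 546 with trend and robust variance. The median change of the members stayed above 0 under every alternative that gave one. No direction reversed among the 10 genes at an unadjusted p under 0.05. The 3 genes below the dim line, LIPA, ARSA and TFEB, cannot be read at this brightness.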
